A study of Mus musculus with 6 samples.

Results

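Ccr2 Cd34 cells of the mouse monocyte and macrophage lineage were taken from 1 deposited droplet single-cell matrix as barcodes that hold transcripts of the chemokine receptor gene Ccr2 and of the progenitor surface marker gene Cd34 together. A barcode was a member when it had at least 3 unique molecular identifiers (UMIs, counted transcript molecules) of Ccr2, at least 3 of Cd34 and at least 1 of Csf1r, and no more than 2 of the macrophage genes Mrc1 and Lyve1 together. The granule genes Mpo, Elane, Prtn3 and Ctsg had to stay under 20 UMIs per 10000 in sum, and the interferon-induced genes Ifit1, Ifit3, Isg15 and Rsad2 under 5. Of 34587 barcodes with at least 1000 UMIs, at least 500 genes and at most 10% mitochondrial UMIs, 2512 were members. That is a share of 7.26% (exact binomial 95% interval 6.99 to 7.54%, which like all intervals here covers counting error only). The levels of the genes in this rule chose the members and are given as a description.

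The labels describe 3 groups of 2 samples each. Macrophage and monocyte lineage cells of whole embryos collected at E14.5 came from Cx3cr1CreER; R26tdTomato embryos whose mothers received 4-hydroxytamoxifen at E9.5, and from Csf1r-Mer-iCre-Mer; Csf1r-EGFP; R26tdTomato embryos treated in the same way at E8.5. All these embryos carried R26tdTomato, in which a Cre recombinase active at the time of injection leaves a permanent red label, here in cells that used the Cx3cr1 or the Csf1r promoter. Total bone marrow of 2-month-old wildtype C57BL/6 mice, given no tamoxifen, formed the last group. Barcodes carry a number from 1 to 4, called libraries 1 to 4 below, that matches no sample label. Cells were therefore not assigned to a driver line or to embryo or adult marrow, and all values are those of 1 pooled sample, with no test. Macrophages of all 4 libraries held tdTomato transcripts, with the values given below. Each library's value is given as a description.

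Monocytes are made from progenitors of the fetal liver and, later, of the bone marrow, and leave these organs by way of the chemokine receptor CCR2. CD34 is a surface sialomucin of early blood progenitors and of endothelium that is lost as myeloid cells mature, whereas the antigen encoded by Ly6c2 and calcium-binding S100 proteins accumulate in maturing inflammatory monocytes. CSF1R, the receptor of macrophage colony-stimulating factor, is carried by the whole lineage, and osteoclasts, which resorb bone, form from it when the receptor RANK, encoded by Tnfrsf11a, meets its ligand.

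Members were set beside 948 Ly6c2 monocytes, which had at least 5 Ly6c2 UMIs, at most 2 of Cd34 and the same other limits except that on Ccr2. They were also set beside 12465 Mrc1 Lyve1 macrophages, with at least 3 UMIs of these genes together and 1 of Csf1r. On the other side of the granule gene limit lay 1269 granule-gene-high Cd34 progenitors, which were not held to the members' limits on Ccr2 and Csf1r. Of these cells, 72.9% had a Ccr2 UMI and 92.0% a Csf1r UMI. They thus differ from members in more limits than that on granule genes. As cells outside the blood lineage, 421 mesenchymal barcodes (at least 10 UMIs of Col1a1 and Col3a1, none of Ptprc or Csf1r) show which levels of blood cell genes free RNA can reach. Median depth was 25223 UMIs in members, 16259 in Ly6c2 monocytes, 14462 in macrophages, 35360 in granule-gene-high progenitors and 10349 in mesenchymal barcodes. Thresholds in raw UMIs favour deep barcodes. Between libraries, 571 barcode sequences of kept barcodes were shared, 5 of them among members. Libraries 3 and 4 stood apart from 1 and 2. Members of libraries 1 to 4 had 11.9, 1.89, 168 and 182 CPM (UMIs of a gene per 1e6 UMIs of its class) of the mast cell protease gene Cpa3, and macrophages 14.2, 23.8, 165 and 134 CPM, so the same libraries were high in both classes.

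Promoter stretches are shown for genes that separate members from each other and for a gene cluster that holds a marker of the members. They are the 150 bases before the transcription start in RefSeq, build GRCm38.p6, 5′ to 3′ on the strand of the gene. In the H2-Aa stretch (chr17:34287824-34287973, minus strand) and the H2-Eb1 stretch (chr17:34305717-34305866, plus strand), both of MHC class II chains, capitals mark CTGATTGG, the Y box known from class II promoters. It was searched on both strands and stood in 3.16% of 32851 promoter stretches of this length.
H2-Aa: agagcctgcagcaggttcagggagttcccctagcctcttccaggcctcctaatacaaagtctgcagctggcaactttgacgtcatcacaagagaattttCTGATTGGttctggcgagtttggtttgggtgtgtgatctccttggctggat
H2-Eb1: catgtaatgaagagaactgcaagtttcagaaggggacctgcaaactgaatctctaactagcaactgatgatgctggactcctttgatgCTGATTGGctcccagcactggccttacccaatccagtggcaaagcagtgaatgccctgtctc

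Of the interferon-induced transmembrane genes clustered on chromosome 7, Ifitm1 (chr7:140967926-140968075, plus strand), Ifitm2 (chr7:140955962-140956111, minus strand) and Ifitm6 (chr7:141016893-141017042, minus strand) are shown because their levels differed between the classes in unlike ways. Capitals mark GAAA, any 2 bases and GAAA again, the core of interferon-stimulated response elements, searched on both strands and found in 1.59% of the promoter stretches. It matched in the Ifitm2 stretch and not in those of Ifitm1 and Ifitm6, which says only that these letters are not in these windows. The Ifitm1 and Ifitm6 windows lie inside the spans of these genes in GENCODE vM21, and bases before those outer starts were not searched.
Ifitm1: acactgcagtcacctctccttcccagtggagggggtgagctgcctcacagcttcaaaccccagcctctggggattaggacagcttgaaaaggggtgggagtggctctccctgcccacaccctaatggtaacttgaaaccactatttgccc
Ifitm2: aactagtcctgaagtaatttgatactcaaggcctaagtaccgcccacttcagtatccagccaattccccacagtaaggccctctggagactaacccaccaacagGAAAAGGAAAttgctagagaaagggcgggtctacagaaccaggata
Ifitm6: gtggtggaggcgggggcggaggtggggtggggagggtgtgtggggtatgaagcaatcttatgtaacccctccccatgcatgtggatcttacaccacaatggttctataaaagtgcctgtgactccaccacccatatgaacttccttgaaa

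Members made up 7.35, 8.62, 6.63 and 6.78% of the kept barcodes of libraries 1 to 4, with 615, 609, 477 and 811 cells. Granule-gene-high Cd34 progenitors took 1.45, 1.40, 5.84 and 5.26%, and Ly6c2 monocytes 1.61, 2.00, 3.88 and 3.29%. The share of members thus varied less between libraries than those of both related classes. Within members, Ccr2 had a median of 9 UMIs with a highest value of 35, and Cd34 a median of 7 with a highest value of 36. Just inside the Cd34 limit, 373 cells with 3 Cd34 UMIs had 203 CPM of Id3 and 313 CPM of Ly6c2. Just outside it, 467 cells with 2 Cd34 UMIs had 148 CPM of Id3 and 264 CPM of Ly6c2.

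These cells carry the label of fetal monocyte progenitors, with the markers Ccr2, Cd34, Ifitm1 and Napsa. Ccr2 (chr9:124101950-124113557 in GENCODE vM21, build GRCm38) stood at 403 CPM in members, 449.9 CPM in Ly6c2 monocytes, 75.1 CPM in macrophages and 109 CPM in granule-gene-high progenitors. Cd34 (chr1:194938819-194961279) stood at 318 CPM in members, 28.5 CPM in Ly6c2 monocytes, 17.8 CPM in macrophages and 249 CPM in granule-gene-high progenitors. Both follow from the rules.

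Napsa (chr7:44572380-44586862), encoding the aspartic protease napsin A, was at 380.2, 409, 396 and 359 CPM in members of libraries 1 to 4, against 572, 509, 484 and 438 CPM in Ly6c2 monocytes. Macrophages had 29.8 CPM, so Napsa was far above the macrophage level in members and below the monocyte level in every library (-0.58 to -0.28 as log2 difference). Ifitm1 (chr7:140967221-140969825) was at 506, 511, 243 and 220.0 CPM in members of libraries 1 to 4, against 249, 148, 41.4 and 77.5 CPM in Ly6c2 monocytes. Library by library Ifitm1 was higher in members, although the ranges of the classes overlap. Granule-gene-high progenitors held both genes, and neither was at least 2-fold higher in members than in them. With each cell thinned to 5000 UMIs, 82.2% of members and 59.3% of granule-gene-high progenitors had a Napsa UMI. For Ifitm1 these shares were 51.2 and 36.9%.

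Kit and Myb, genes of early progenitors, were near or below the level of mesenchymal barcodes in members, and Flt3 was above it. The 16 genes of a stem and progenitor list, without Cd34, summed to 367 CPM in members, 316 CPM in Ly6c2 monocytes, 403 CPM in macrophages, 566 CPM in granule-gene-high progenitors and 298 CPM in mesenchymal barcodes. Kit, the receptor of stem cell factor, was at 5.49 CPM in members, 21.6 CPM in granule-gene-high progenitors and 11.6 CPM in mesenchymal barcodes. After each cell was thinned to 5000 UMIs, 1.91% of members had a Kit UMI (6.45% unthinned), against 3.13% of mesenchymal barcodes. Kit was thus not above the background level. Myb, a transcription factor of definitive progenitors, was at 6.06 CPM in members, 54.2 CPM in granule-gene-high progenitors and 4.10 CPM in mesenchymal barcodes, and a Myb UMI was found in 2.75% of thinned members and 1.99% of thinned mesenchymal barcodes. Flt3, a growth factor receptor of lymphoid and dendritic progenitors, lay above the level of mesenchymal barcodes. Flt3 was at 12.4, 10.3, 18.2 and 14.0 CPM in members of libraries 1 to 4, against 2.36, 5.62, 2.31 and 3.19 CPM in Ly6c2 monocytes. A Flt3 UMI was found in 6.01% of thinned members (5.12 to 7.02%; 21.5% unthinned), against 1.30% of thinned Ly6c2 monocytes and 0.285% of thinned mesenchymal barcodes. Granule-gene-high progenitors had a thinned share of 6.91%. Within members, Flt3 was at 46.1 CPM in cells rich in MHC class II transcripts, described below, and 10.5 CPM in those without any. Of these genes, Cd34, which the rule used, and Flt3 at a low level go with the word progenitor in the label, and the members are called Ccr2 Cd34 cells or members here.

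**Figure D1:**
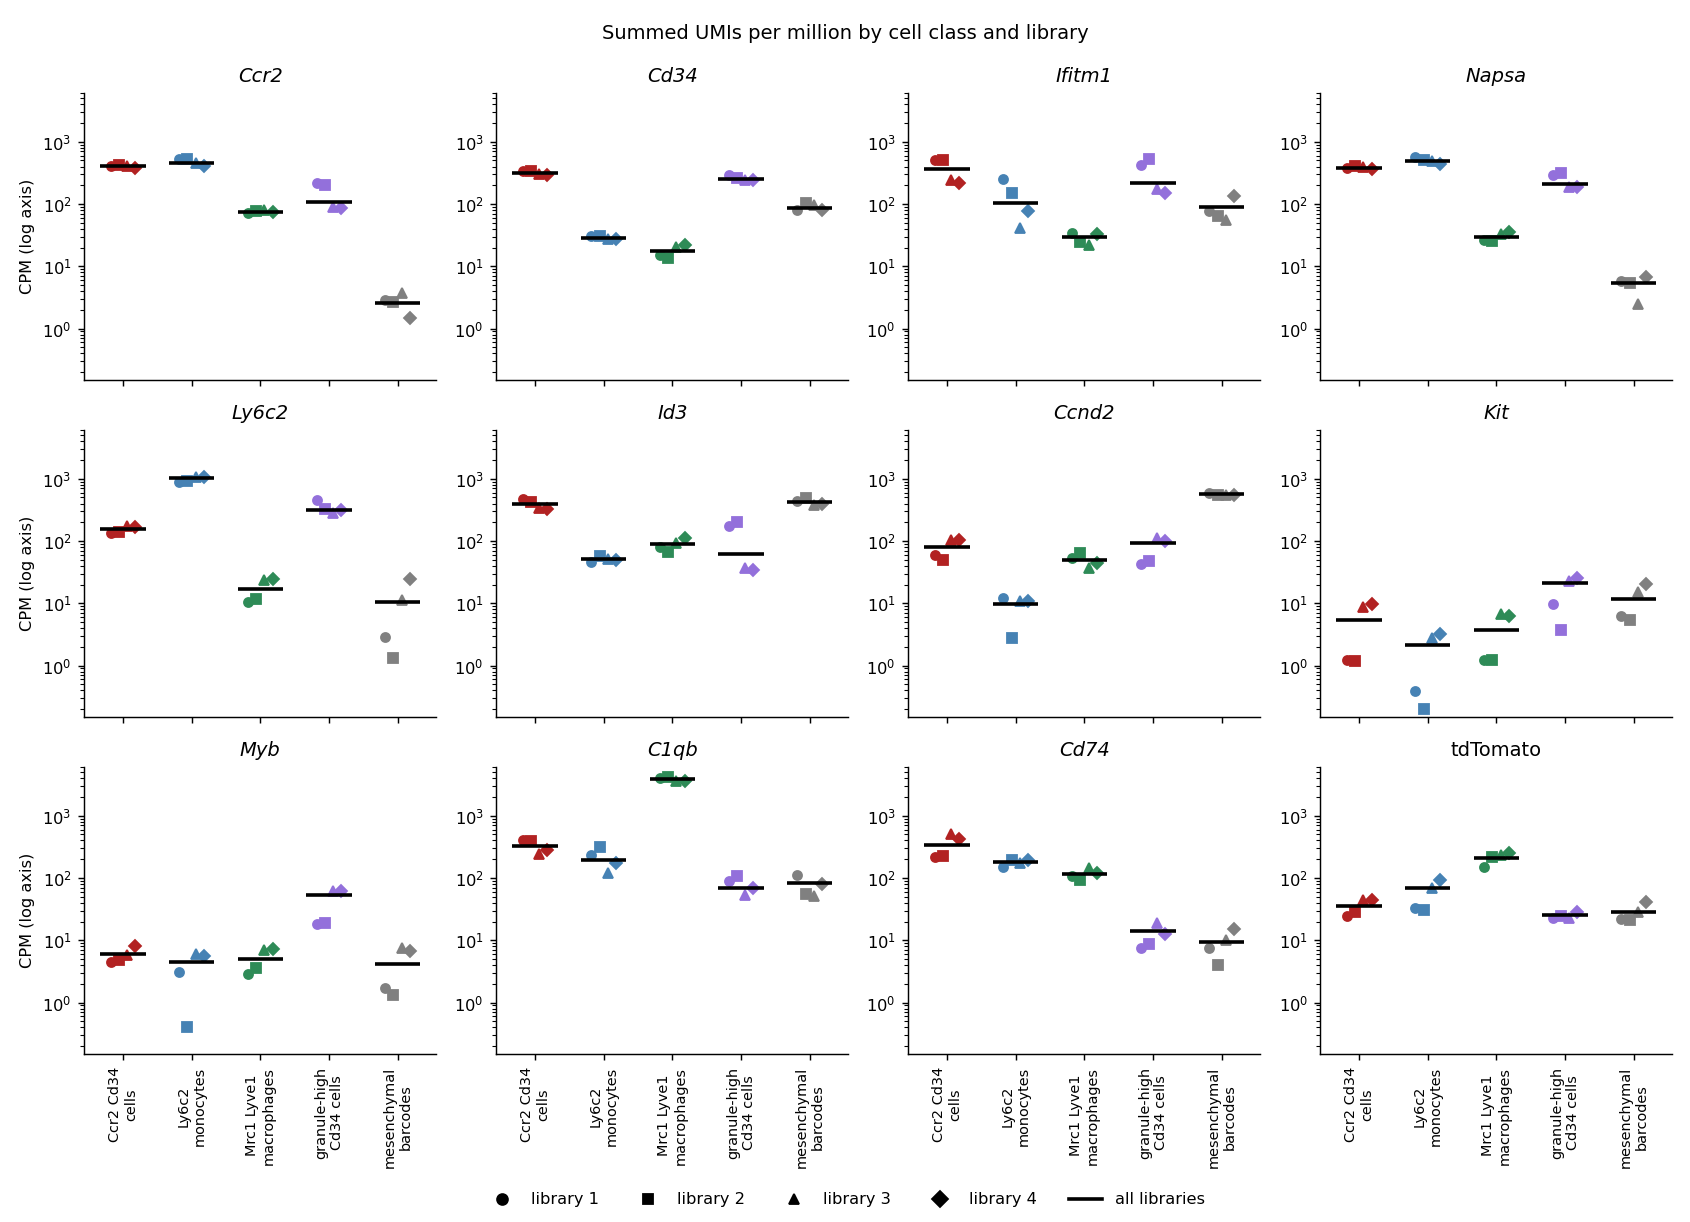
CPM (log axis) of single genes in 5 cell classes, with Ccr2 Cd34 cells at the left; each point is 1 library, each line the value over all libraries, and values under 0.2 CPM are drawn at 0.2. Id3 stood at 386 CPM in Ccr2 Cd34 cells and 51.0 CPM in Ly6c2 monocytes, and Kit at 5.49 CPM in Ccr2 Cd34 cells and 11.6 CPM in mesenchymal barcodes.

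Differences between classes are given as log2 of the CPM ratio with 10 CPM added to each value, which understates differences of low genes. Genes of at least 50 CPM in either class were compared, without the 14 genes of the rules, and a gene was called at 2-fold. Against Ly6c2 monocytes, 30 of 2953 genes (1.02%) were called higher in members and 95 (3.22%) lower, with a median difference of 0.10 over all genes compared. Median-of-ratios scaling, in place of CPM, moved that median to -0.01 and the genes called higher to 17. Classes chosen by their Ly6c2 and Cd34 counts differ also in genes that go with these, so the counts describe the classes and nothing is read from them.

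Of 13 myeloid transcription factor genes compared with Ly6c2 monocytes, 0 were called higher in members and 1 lower, with a median log2 difference of -0.17. Of all genes, 1.02% were called higher and 3.22% lower. The gene called lower was Cebpe, a factor of granulocyte maturation, at 8.01 CPM in members and 69.7 CPM in Ly6c2 monocytes (-2.15). Of 3 stem and progenitor genes that reached 50 CPM, 0 were called in either direction. Both counts are near the shares of all genes, so nothing about these lists is read from them. Irf8, needed for monocyte and dendritic fate, was at 196, 208, 285 and 246 CPM in members of libraries 1 to 4, against 219, 241, 299 and 262 CPM in Ly6c2 monocytes. Spi1, encoding the myeloid regulator PU.1, was at 595 CPM in members and 602 CPM in Ly6c2 monocytes. Cx3cr1, the fractalkine receptor of macrophages and their precursors, was at 82.3 CPM in members, 50.7 CPM in Ly6c2 monocytes and 452 CPM in macrophages.

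Id3 led the genes higher in members than in Ly6c2 monocytes. It encodes an inhibitor of DNA binding that blocks E-protein transcription factors (chr4:136143497-136145755). Id3 was at 467, 421, 338 and 329 CPM in members of libraries 1 to 4, against 45.2, 58.2, 51.3 and 50.3 CPM in Ly6c2 monocytes, a log2 difference of 2.70 (2.49 to 3.11 by library). The lowest library of members lay above the highest of monocytes. Id1, of the same family, was at 107 CPM in members and 34.4 CPM in Ly6c2 monocytes (1.40, 0.86 to 1.83 by library). Id2, a further member, was not called, with 485 CPM in members and 413 CPM in Ly6c2 monocytes. Mesenchymal barcodes also held Id3, at 421 CPM, and the part of free RNA in the members' level was not tested.

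Both D-type cyclin genes that the naming rule returned, which drive entry into the cell cycle, were next. Ccnd2 was at 60.4, 48.8, 103 and 102 CPM in members of libraries 1 to 4, against 2.81 to 12.2 CPM in libraries of Ly6c2 monocytes (2.17). Ccnd1 was at 61.8 CPM in members and 10.8 CPM in Ly6c2 monocytes (1.79). For both genes every library of members lay above its own monocytes. A Ccnd2 UMI was found in 23.3% of thinned members and 3.24% of thinned Ly6c2 monocytes. The share was higher in granule-gene-high progenitors (29.1%) and mesenchymal barcodes (84.6%), and the part of free RNA in the members' level was not tested. The remaining genes were Phgdh, of serine synthesis, Tmem176b and Tmem176a, of membrane channels in myeloid cells, the DNA repair gene Apex1, the cytokine gene Mif and the interferon-inducible gene Ifi203. Phgdh was at 209 CPM in members and 62.6 CPM in Ly6c2 monocytes (1.59). Mif was at 899.5 CPM in members and 378 CPM in Ly6c2 monocytes (1.23). The other 4 differed by 1.21 to 1.61.

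Genes of DNA replication had a small shift towards members, those of mitosis none. Of 14 S phase genes compared, 0 were called higher and 0 lower, beside 1.02% higher and 3.22% lower of all genes. Their median log2 difference was 0.41 (0.33 to 0.55 by library) against 0.10 over all genes. Mcm6, of the replicative helicase, was at 201 CPM in members and 128 CPM in Ly6c2 monocytes. Of 14 G2 or M phase genes, 0 were called and the median was -0.01. Top2a, encoding a topoisomerase of dividing cells, was found in 60.0% of thinned members (81.6% unthinned), 51.9% of thinned Ly6c2 monocytes, 30.2% of thinned macrophages and 29.1% of thinned mesenchymal barcodes.

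Genes of mature monocytes were lower in members. Of 12 compared, 0 were called higher and 11 lower, with a median log2 difference of -1.65 (-1.72 to -1.35 by library). S100a6, of calcium binding, was at 228 CPM in members and 1254 CPM in Ly6c2 monocytes (-2.41), with 344 CPM in mesenchymal barcodes. Hp, encoding haptoglobin, was at 308 CPM in members and 1347 CPM in Ly6c2 monocytes (-2.09). The gene that missed the call was S100a10 (-0.56). Lyz2, encoding lysozyme, was at 7884 CPM in members, 20862 CPM in Ly6c2 monocytes and 2494 CPM in macrophages, so members lay between both classes.

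Neutrophil transcripts move with this comparison. All 6 neutrophil markers compared were called lower in members. S100a8 was at 1076 CPM in members and 23986 CPM in Ly6c2 monocytes. Ngp, of neutrophil granules, was at 0.313, 0.189, 71.4 and 89.4 CPM in members of libraries 1 to 4, against 259, 0.802, 2695 and 3129 CPM in Ly6c2 monocytes. Ngp was thus near 0 in both classes of library 2 and lower in members of the other libraries, where 1 of the 135 monocytes of library 1 was over the limit on granule transcripts used next. The 10 genes named as lower were Lcn2, Stfa2l1, Olfm4, Stfa3, Stfa2, Pglyrp1, Wfdc21, Stfa1, Slpi and Chil1, with log2 differences from -4.92 to -3.10, and Chil1 differed by only -0.06 in its closest library. Stfa1, a stefin that inhibits cysteine proteases, was at 513 CPM in members and 8434 CPM in Ly6c2 monocytes (-4.01, -4.01 to -3.77 by library).

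In a choice made after these values were seen, 855 Ly6c2 monocytes with few neutrophil granule transcripts (Ngp 10.8 CPM, S100a8 17503 CPM) took the place of all. The log2 difference was then 2.66 for Id3, 2.14 for Ccnd2, 1.63 for Ifitm1, -2.43 for S100a6 and -2.03 for Hp. It was -1.18 for Lcn2 and turned to 0.31 for Stfa2, with 27 genes called higher and 85 lower.

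Genes of the Ifitm family, which encode small membrane proteins that restrict viral entry, did not go one way. Ifitm1 had a log2 difference of 1.70 to Ly6c2 monocytes (0.99 to 2.30 by library). Ifitm3 was at 2292 CPM in members and 2268 CPM in Ly6c2 monocytes (0.01). Ifitm2 was at 602 CPM in members, 695 CPM in Ly6c2 monocytes and 1193 CPM in mesenchymal barcodes. Ifitm6 was at 243 CPM in members and 598 CPM in Ly6c2 monocytes (-1.26), and -0.90 with the monocytes low in neutrophil genes. Ifitm1 and Ifitm6, whose promoter stretches are printed above, thus stood on opposite sides of this comparison.

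**Figure D2:**
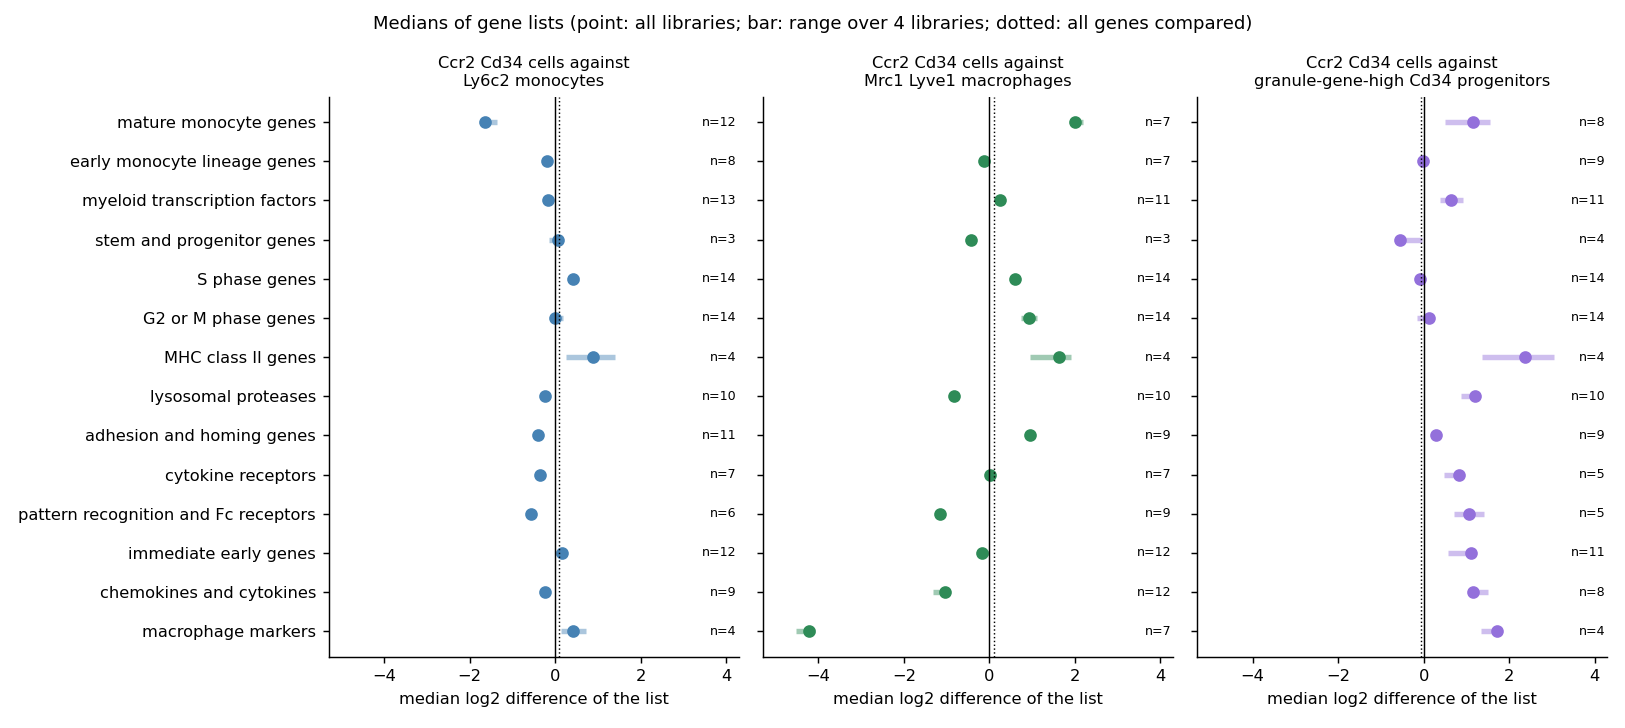
Median log2 difference of gene lists between Ccr2 Cd34 cells and 3 other classes, with bars for the range over 4 libraries, a dotted line for the median of all genes compared and n for the list members compared. Genes of mature monocytes had medians of -1.65 against Ly6c2 monocytes and 2.01 against Mrc1 Lyve1 macrophages.

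Against Mrc1 Lyve1 macrophages, 119 of 3130 genes (3.80%) were called higher in members and 280 (8.95%) lower, with a median of 0.11. All 7 mature monocyte genes compared were called higher in members (median 2.01), among them Lgals3, encoding galectin-3, with 1001 CPM in members and 211 CPM in macrophages. Plac8, a gene of early myeloid cells, was at 1669 CPM in members and 193 CPM in macrophages (3.05). Lsp1, encoding a leukocyte actin-binding protein, was at 659.6, 704, 767 and 724 CPM in members of libraries 1 to 4, against 164, 166, 146 and 145 CPM in macrophages (2.12). Id3 was among the genes named here as well (2.02, 1.47 to 2.51 by library). The others were Mcemp1, Glipr2, Gpr141, Cytip, Rnase6, Thbs1, Plp2 and Anxa1, with differences of 1.96 to 2.37.

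Macrophage genes were far lower in members. All 7 macrophage markers compared were called lower, with a median of -4.21. C1qb, of the complement component C1q, was at 412, 392, 241 and 277 CPM in members of libraries 1 to 4, against 3966, 4218, 3638 and 3574 CPM in macrophages. Ly6c2 monocytes had 192 CPM and mesenchymal barcodes 83.2 CPM. C1qa, encoding another chain of C1q, had a UMI in 21.9% of thinned members (20.3 to 23.6%; 56.2% unthinned) and 19.4% of thinned mesenchymal barcodes (15.4 to 23.9%; 36.3% unthinned). These intervals overlap, so the C1qa share does not separate both classes. The 8 macrophage markers together summed to 734 CPM in members (534 to 904 by library). Mesenchymal barcodes had 264 CPM of them (177 to 344 by library). The part of free RNA in the members' level was not tested. Folr2, of folate uptake, was at 3.01 CPM in members, 231 CPM in macrophages and 3.88 CPM in mesenchymal barcodes. The 10 genes named as lower were Gas6, Fcrls, Dab2, Stab1, Cd63, Ednrb, Selenop, Ltc4s, Slc40a1 and Smagp. Gas6, a ligand of receptors for apoptotic cells, was at 9.19, 8.76, 3.64 and 5.36 CPM in members of libraries 1 to 4, against 581, 624, 481 and 423 CPM in macrophages (-5.00). Slc40a1, the iron exporter gene, was at 12.9 CPM in members and 241 CPM in macrophages (-3.45).

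Lysosomal protease genes split. Of 10 compared, Napsa was called higher in members (3.30) and 5 lower, namely Ctsb, Ctsd, Ctsl, Ctsa and Lgmn. Lgmn, encoding legumain, was at 229 CPM in members and 2067 CPM in macrophages (-3.12). Of 12 chemokine and cytokine genes, 6 were called lower and 1 higher. Ccl12, a ligand of CCR2, was at 20.2 CPM in members and 516 CPM in macrophages (-4.12). Ccl2, another ligand of CCR2, was at 219 CPM in members and 785 CPM in macrophages (-1.80). Il1b, called higher, was at 76.2, 58.7, 355 and 346 CPM in members of libraries 1 to 4, against 22.9, 21.5, 121 and 181 CPM in macrophages, with the high values of both classes in libraries 3 and 4. Of 9 adhesion genes, Selplg, Itgb2 and Itgb7 were called higher in members and Itga6 lower. Itgb7, an integrin gene of gut homing, was at 67.9 CPM in members and 4.82 CPM in macrophages (2.39).

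Cell cycle genes lay higher than in macrophages by their medians. S phase genes had a median of 0.60 with 1 of 14 called higher, and G2 or M phase genes 0.92 with 1 of 14, against 0.11 over all genes. Rrm2, of the ribonucleotide reductase, was at 200.3 CPM in members and 80.4 CPM in macrophages.

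Of 5 genes of osteoclast precursors compared with macrophages, 0 were called higher in members and 3 lower (Cx3cr1, Trem2 and Fcer1g). Trem2, a receptor that signals in osteoclasts and microglia, was at 144 CPM in members and 452 CPM in macrophages (-1.58). Tnfrsf11a, encoding RANK, was at 11.3, 10.0, 9.13 and 10.1 CPM in members of libraries 1 to 4, against 36.2, 34.6, 41.2 and 39.5 CPM in macrophages. Ly6c2 monocytes had 5.90, 7.62, 4.85 and 4.92 CPM and mesenchymal barcodes 2.16 CPM over all libraries. In every library the RANK transcript level of members lay between those of monocytes and macrophages.

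Against granule-gene-high Cd34 progenitors, 172 of 3010 genes (5.71%) were called higher in members and 45 (1.50%) lower, with a median of -0.05. Most of the granule-gene-high cells came from libraries 3 and 4, with 121, 99, 420 and 629 cells in libraries 1 to 4. Id3 was at 467, 421, 338 and 329 CPM in members, against 174, 199, 37.1 and 34.3 CPM in granule-gene-high progenitors of libraries 1 to 4, and the log2 difference was 2.46 over all libraries and 1.04 to 2.94 by library. Its size thus depended on the library through the granule-gene-high cells. The other genes named as higher in members were Ifi27l2a, Pid1, Rtp4, Clec4a1, Clec4a3, Ckb, Hpgd, Fyb and Slc11a1. Ifi27l2a, an interferon-inducible gene, was at 312 CPM in members and 28.1 CPM in granule-gene-high progenitors (3.08). Slc11a1, of metal transport in phagosomes, was at 64.7 CPM in members and 6.48 CPM in granule-gene-high progenitors (2.18).

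Phagocyte genes were among the higher ones. Of 10 lysosomal protease genes 7 were called higher in members (median 1.19). Ctss, encoding cathepsin S, was at 784 CPM in members and 129 CPM in granule-gene-high progenitors (2.52). Of 11 immediate early genes, which respond to stimulation and also to cell dissociation, 7 were called higher (median 1.11). Among the myeloid transcription factors compared, Id2, Irf5 and Maf were called higher and 0 genes lower. Id2 was at 512, 501, 524 and 432 CPM in members of libraries 1 to 4, against 209, 233, 64.1 and 60.2 CPM in granule-gene-high progenitors (2.31, 1.07 to 2.85 by library).

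Of 4 stem and progenitor genes compared with granule-gene-high progenitors, 1 was called lower in members (Myb) and 0 higher. Of 9 early monocyte lineage genes, Cx3cr1, Ly86 and Pld4 were called higher and Ms4a3 and Fcnb lower, and of 3 genes of the fetal programme Hmga2 was called lower. These lists had no common direction. Ms4a3, a gene of granulocyte and monocyte progenitors, was at 0.839 CPM in members, 140.4 CPM in granule-gene-high progenitors and 1.94 CPM in mesenchymal barcodes (-3.79). Hmga2, a chromatin gene of fetal cells, was at 13.4 CPM in members, 135 CPM in granule-gene-high progenitors and 124 CPM in mesenchymal barcodes (-2.63). Cdk6, a kinase of cell cycle entry, was at 20.6, 18.3, 23.8 and 27.8 CPM in members of libraries 1 to 4, against 39.5, 38.6, 122 and 129 CPM in granule-gene-high progenitors (-1.87). Every library of members was below its own granule-gene-high progenitors in Cdk6. The other genes named as lower were Cst7, Serpinb1a, Igfbp4, Spata7, Egfl7, Cnn3, Tuba4a, Rasgrp2 and Nedd4, from -2.11 to -1.51. Cell cycle genes had medians of -0.09 (S phase) and 0.13 (G2 or M phase), with 0 called.

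Among all Ccr2 cells within the other limits, transcript levels were graded with Cd34. For this view, 5179 cells with at least 3 Ccr2 UMIs and a depth of 10000 UMIs or more were thinned to 10000 UMIs and grouped by their remaining Cd34 UMIs, so that depth is equal. Groups of 0, 1, 2, 3 to 4, and 5 or more held 2182, 963, 607, 858 and 569 cells, of which 140, 390, 487, 858 and 569 were members. Id3 was at 91.9, 194, 275, 431 and 523 CPM in these groups in this order. Id1 was at 23.1, 52.6, 75.9, 108 and 131 CPM and Ifitm1 at 148, 281, 282, 340.2 and 424 CPM. All 3 were higher at 5 or more Cd34 UMIs than at 0 in each of the 4 libraries, although Id3 of library 3 was lower at 5 or more (407 CPM) than at 3 to 4 (441 CPM). Over all libraries Ly6c2 ran the other way, with 266, 262, 207, 129 and 69.2 CPM, and it was lower at 5 or more Cd34 UMIs than at 0 in each library. At low Cd34 it did not fall step by step in libraries 1 and 2. Groups of 0, 1 and 2 had 164, 194 and 206 CPM of Ly6c2 in library 1 and 188, 213 and 133 CPM in library 2. S100a6 was at 766, 482, 331, 246 and 205 CPM. C1qb was at 1299, 786, 541, 345 and 273 CPM, although in library 3 it was 250 CPM at 5 or more and 233 CPM at 3 to 4. Napsa was nearly level, with 388, 375, 395, 383 and 425 CPM. The upper groups are members because of Cd34 itself and the group at 0 mixes several kinds of Ccr2 cells, so this is a description.

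**Figure D3:**
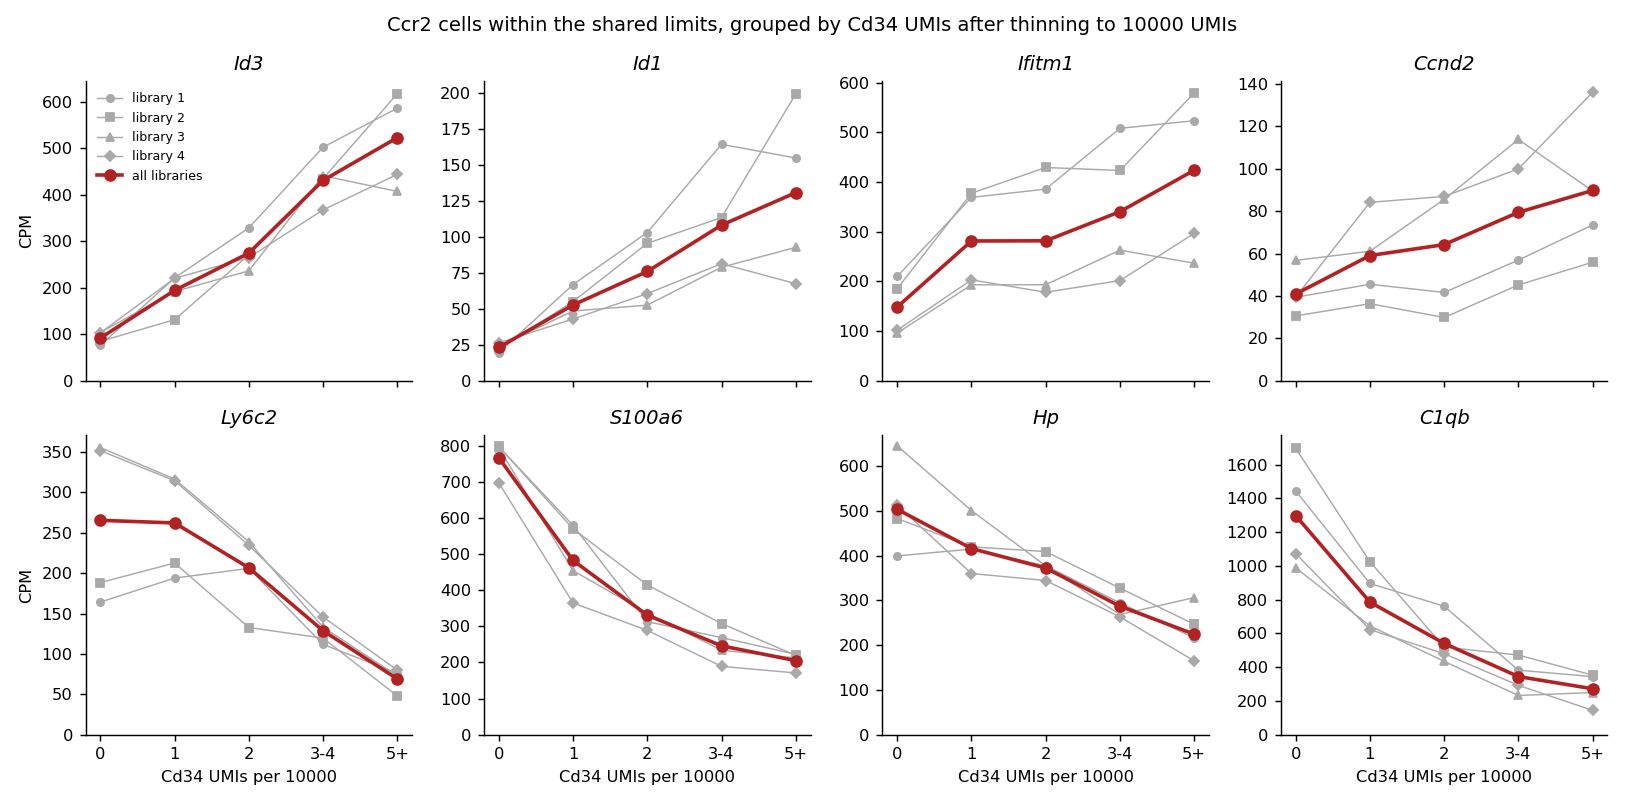
CPM of single genes in Ccr2 cells grouped by Cd34 UMIs after thinning to 10000 UMIs, in grey for each library and in red for all libraries. Id3 was at 523 CPM at 5 or more Cd34 UMIs and 91.9 CPM at 0, and S100a6 at 205 and 766 CPM.

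Within members, Ly6c2 divided some of the same genes again. No Ly6c2 UMI was seen in 1250 members (49.8%), 1 to 4 in 780 (31.1%) and 5 or more in 482 (19.2%), with median depths of 23398, 26612 and 27696 UMIs. Id3 was at 448, 395 and 238 CPM in these groups, and Ccnd2 at 109, 76.9 and 17.7 CPM. Flt3 was at 18.2, 13.1 and 3.54 CPM, while Hp was at 160.5, 280.2 and 675 CPM and S100a8 at 102, 277 and 4436 CPM. Ly6c2 also defines the Ly6c2 monocytes, so a distance of these groups from them is built in and this order is a description. Not all genes followed it. Ifitm1 was at 373, 422 and 257 CPM and Id1 at 104, 117 and 99.2 CPM. Irf8 was at 229.6, 234 and 233 CPM and Top2a at 296, 307 and 345 CPM, which differed little between the groups.

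MHC class II transcripts came from few members. Class II molecules present antigen and are typical of dendritic cells and B cells. Of 4 class II genes compared with Ly6c2 monocytes, 1 was called higher in members (beside 1.02% of all genes), H2-Aa, at 28.9, 22.6, 115 and 85.4 CPM in members of libraries 1 to 4, against 29.1, 11.2, 27.3 and 26.1 CPM in Ly6c2 monocytes. In library 1 both classes had nearly the same H2-Aa level. Against macrophages 4 of 4 were called higher, beside 3.80% of all genes, and against granule-gene-high progenitors 3 of 4, beside 5.71%. Cd74, encoding the invariant chain, was at 217, 224, 515 and 424 CPM in members of libraries 1 to 4, against 149, 197, 173 and 194 CPM in Ly6c2 monocytes. Class II levels were not highest at high Cd34 among the Ccr2 cells grouped by Cd34 UMIs after thinning to 10000 UMIs. Over all libraries, Cd74 was at 1501 CPM at 0 Cd34 UMIs, 403 CPM at 3 to 4 and 482 CPM at 5 or more. H2-Aa was at 311, 69.7 and 89.98 CPM in the same groups. As stated above, the group at 0 mixes several kinds of Ccr2 cells. At least 5 UMIs of H2-Aa, H2-Ab1 and H2-Eb1 together were found in 140 members (5.57%, 4.71 to 6.54%), a limit chosen after the data were seen. These cells held 94.4% of such UMIs of all members.

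The share of class II-rich members was 3.58, 2.79, 9.01 and 7.15% in libraries 1 to 4. It was 1.16% in Ly6c2 monocytes, 0.594% in macrophages and 0.0788% in granule-gene-high progenitors. It was 0 of 421 in mesenchymal barcodes, which allows a share of up to 0.713%.

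The class II-rich members differed from the other members in further genes, which are named because they differed and so carry no test. Id2, an inhibitor of DNA binding needed by dendritic cells, was at 1369.7 CPM in class II-rich members and 439.7 CPM in other members. Itgb7 was at 236 CPM in class II-rich members and 59.3 CPM in other members, and Ly6a, encoding stem cell antigen SCA-1, at 199 and 13.8 CPM. Lower were F13a1, of a coagulation factor made by monocytes, at 27.6 CPM in class II-rich members and 275 CPM in other members, and Lyz2, at 2282 and 8171 CPM. Batf3, a transcription factor of cross-presenting dendritic cells, was at 136 CPM in class II-rich members and 38.7 CPM in members without a class II UMI, and Flt3 at 46.1 and 10.5 CPM. Zbtb46, a defining gene of conventional dendritic cells, was low, at 2.82 CPM in class II-rich members and 0.271 CPM in members without a class II UMI. Itgax, encoding the dendritic cell integrin CD11c, was at 16.6 CPM in class II-rich members and 1.03 CPM in members without a class II UMI. Ciita, the activator of class II genes, was at 14.4 and 0.174 CPM in the same groups, and Ccr7, a chemokine receptor of migrating dendritic cells, at 6.90 and 0.600 CPM. Siglech, of plasmacytoid dendritic cells, was at 2.20 CPM in class II-rich members and 1.90 CPM in members without a class II UMI.

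Summed neutrophil markers were higher in class II-rich members of libraries 3 and 4, but through few cells. These libraries gave most of the class II-rich members (22, 17, 43 and 58 cells in libraries 1 to 4). The 7 markers summed to 31.7, 25.3, 2233 and 2973 CPM in class II-rich members of libraries 1 to 4, against 1007, 1003, 1475 and 1912 CPM in other members. Camp, of neutrophil granules, was at 0, 2.81, 151 and 424 CPM in class II-rich members of libraries 1 to 4, against 0.513, 0.580, 31.9 and 51.2 CPM in other members. Ngp was at 156 CPM in class II-rich members and 37.0 CPM in other members over all libraries. A single cell held 80.3% of the Camp UMIs of class II-rich members and 64.0% of those of all these markers. By these sums it lies in library 4, whose values thus rest mostly on 1 barcode. Only 3 class II-rich members held 50 or more UMIs of these markers. No shift of the class II-rich members as a group is read from the sums. In libraries 1 and 2 the summed level was lower in class II-rich members than in the others. The median depth of class II-rich members was 21538 UMIs. No doublet caller was run, and the part of neutrophil transcripts and of doublets was not tested.

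**Figure D4:**
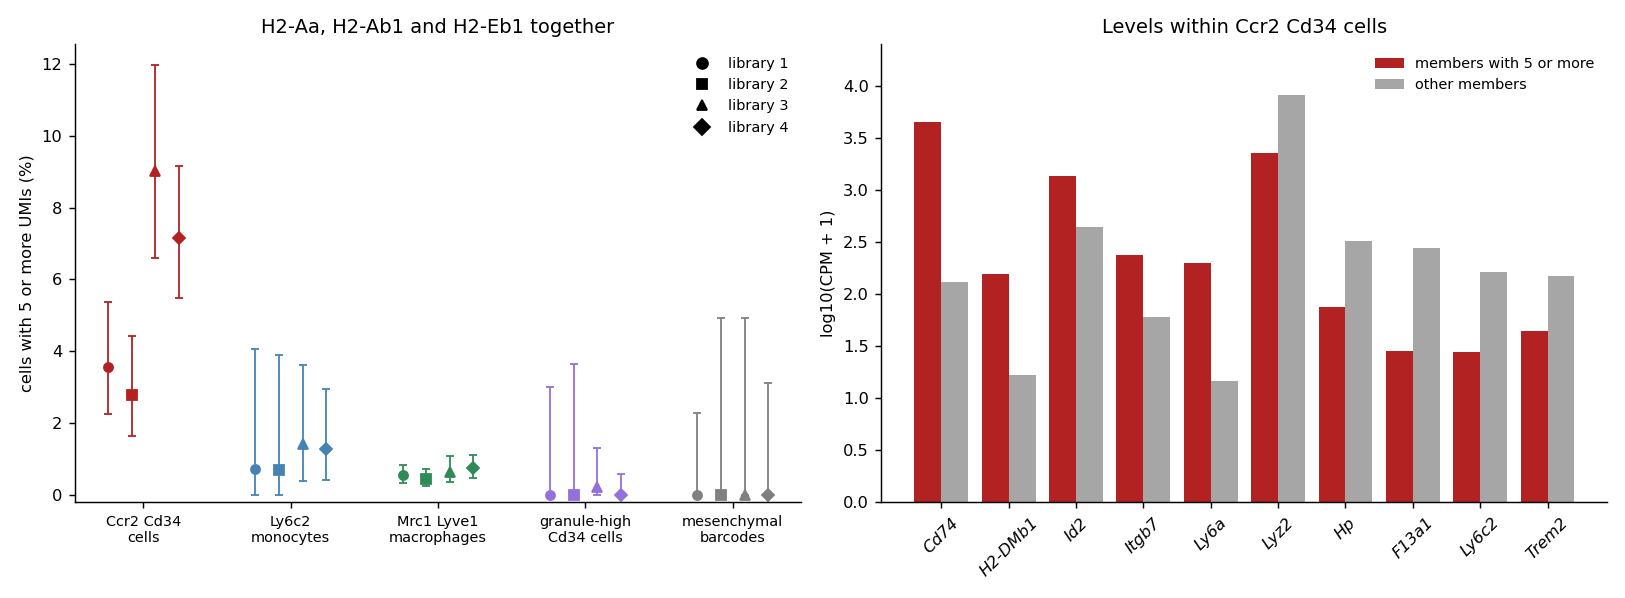
Left, share of cells with 5 or more UMIs of 3 MHC class II genes in 5 cell classes by library, with exact binomial 95% intervals; right, gene levels as log10(CPM + 1) in class II-rich Ccr2 Cd34 cells and in the other members. Cd74 was at 4499 CPM in the class II-rich cells and 129 CPM in the other members.

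The lineage label was low in members. The tdTomato transcript was at 24.8, 28.6, 44.9 and 44.5 CPM in members of libraries 1 to 4, against 33.4, 30.1, 69.5 and 94.3 CPM in Ly6c2 monocytes and 149, 219, 235 and 252 CPM in macrophages. Mesenchymal barcodes had 28.7 CPM over all libraries. After thinning to 5000 UMIs, which left out 1 member, 14.0% of members had a tdTomato UMI (12.6 to 15.4%; 48.6% unthinned). The thinned share was 24.0% in Ly6c2 monocytes, 37.9% in macrophages, 10.9% in granule-gene-high progenitors and 12.8% in mesenchymal barcodes (9.51 to 16.8%). Thinning left out 22 Ly6c2 monocytes, 701 macrophages, 10 granule-gene-high progenitors and 70 mesenchymal barcodes. The interval of the members overlaps that of mesenchymal barcodes, so the thinned share does not separate members from background. Over all UMIs, tdTomato was at 35.9 CPM in members, beside the 28.7 CPM of mesenchymal barcodes. Whether some members were labelled was not tested.

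**Figure D5:**
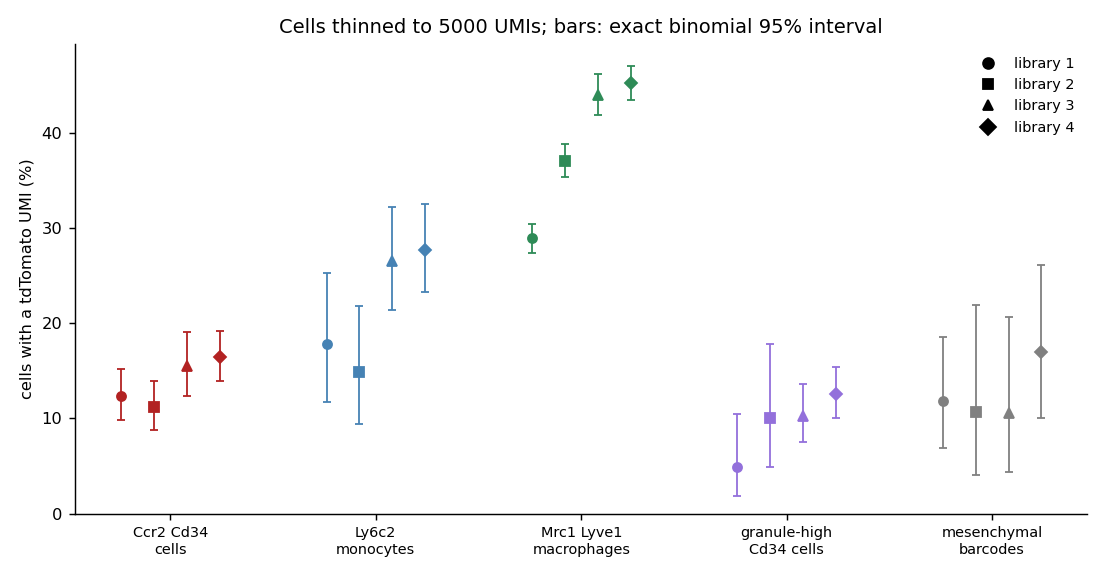
Share of cells with a tdTomato UMI after thinning to 5000 UMIs in 5 cell classes, 1 point per library with its exact binomial 95% interval, Ccr2 Cd34 cells at the left. The share in Ccr2 Cd34 cells was 12.4, 11.2, 15.5 and 16.4% in libraries 1 to 4, below that of macrophages of the same library.

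Members of the 4 libraries were alike in most genes. Of 2944 genes of at least 50 CPM, 47 (1.60%) differed at least 2-fold between the highest and the lowest library. They included Cd14, the lipopolysaccharide coreceptor gene, at 82.8, 94.2, 316 and 463 CPM in members and 124, 144, 323 and 419 CPM in macrophages of libraries 1 to 4. UMIs assigned to the estrogen receptor gene Esr1 were at 1.25, 2.02, 111 and 135 CPM in members and 5.11, 5.73, 38.5 and 42.6 CPM in macrophages. The Mer parts of the Csf1r-Mer-iCre-Mer construct are estrogen receptor sequence, so transcripts of the gene and of the construct cannot be told apart here, and no level of the gene itself is read from them. For both, libraries 3 and 4 were high in both classes. No marker of the lymphoid, megakaryocyte, endothelial, mesenchymal, hepatocyte and neural lists reached 50 CPM in members or in the classes compared with them. The beta globin gene Hbb-bs was at 450.2 CPM in members, 754 CPM in Ly6c2 monocytes and 1010.4 CPM in mesenchymal barcodes.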

How the data were processed

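UMI counts per gene and barcode were deposited by the authors as 1 matrix of 39048 barcodes and 31054 features. Cell Ranger 2.1.1 and build mm10 are named in the submitters' processing notes, and the file header names software version 3.0.1. Further alignment settings are not given in the sources used here. Filters removed 4461 barcodes. From these, UMIs of a gene were added up over the cells of a class, by library and in all, and scaled to the sum of that class (CPM). Members and gene lists were chosen with earlier results of these data known. As 1 pooled sample allows no test, differences are described with counting intervals (exact Poisson or Clopper-Pearson). Named genes were the 10 highest and 10 lowest by log2 difference in each comparison, outside the rules and lists, with at least 50 CPM in the higher class and the same direction in all 4 libraries, without ribosomal, mitochondrial, globin and predicted genes. The up to 6 most abundant members of each list and single fixed genes were added, and other list members named were chosen after their values were seen. Genes named for class II-rich cells were chosen after their values were seen. Shares of cells were computed after random thinning with a fixed seed. No doublet caller was run. Calculations used Python 3.11.15, numpy 2.4.6, scipy 1.17.1 and pandas 2.3.3, and were tested on simulated data. The alternatives tried are given in the closing section.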

Additional observations from a re-analysis of the deposited data

How the results depend on the processing

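The number of Ccr2 Cd34 cells was 1658 with at least 5 UMIs of Ccr2 and Cd34, 906 with at least 3 of each per 10000 UMIs and 1631 with a granule gene limit of 5 per 10000. Against Ly6c2 monocytes, 17 genes were called higher with median-of-ratios scaling, which moved the median of all genes from 0.10 to -0.01, and 48 with a pseudocount of 1 CPM. With a pseudocount of 50 CPM, 7 genes were higher and 53 lower against Ly6c2 monocytes, 63 and 158 against macrophages, and 85 and 18 against granule-gene-high progenitors, since it shrinks low genes most. With a filter of 10 CPM, and also with no filter, 473 genes were lower against macrophages and 79 against granule-gene-high progenitors, as more genes were compared. With libraries weighted equally, 26 genes were lower against granule-gene-high progenitors, and the cause was not tested. The share of members with a tdTomato UMI was 6.53% at 2000 UMIs and 48.6% unthinned. The median of the Ifitm family against macrophages was -0.000620 with no filter, which adds family members under 50 CPM in both classes. Monocytes low in neutrophil genes and the removal of class II-rich cells were chosen after seeing the data. With the low-neutrophil monocytes, Stfa2 had a log2 difference of 0.31.

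Leaving out each library in turn gave 1701 to 2035 cells, 28 to 39 genes higher and 93 to 100 lower against Ly6c2 monocytes, 113 to 135 and 278 to 286 against macrophages, and 158 to 180 and 37 to 47 against granule-gene-high progenitors. Of 1206 values of 71 single-gene differences under the alternatives, 1 had the opposite sign and 28 were under 2-fold. No paired analysis was possible because no test was run and the library numbers match no replicate label, and differences within each library are given as ranges instead. Depth limits Kit, Myb, Flt3 and tdTomato, whose shares of cells are low after thinning.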

Other observations

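Receptors and phagocyte genes outside the comparisons above also separated the classes. Of 9 pattern recognition and Fc receptor genes compared with macrophages, 0 were called higher in Ccr2 Cd34 cells and 5 lower (Fcgr2b, Fcgr3, Fcer1g, Cd36 and Marco), beside 3.80% higher and 8.95% lower of all genes, with a median log2 difference of -1.15. Against granule-gene-high Cd34 progenitors, 3 of 5 were called higher (Tlr2, Fcgr1 and Fcer1g), beside 5.71% of all genes. Of 7 cytokine receptor genes compared with macrophages, Csf2rb, the shared chain of receptors for GM-CSF, IL-3 and IL-5, was the 1 called higher, a share read against the same 3.80%, with 151 CPM in Ccr2 Cd34 cells and 58.6 CPM in macrophages (1.23). Maf, a transcription factor of tissue macrophages, was at 65.1 CPM in Ccr2 Cd34 cells, 34.5 CPM in Ly6c2 monocytes, 492 CPM in macrophages and 7.80 CPM in granule-gene-high progenitors.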
